A study of Mus musculus with 4 samples.

Results

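Cereblon and the Cul4 ubiquitin ligase it belongs to were followed in long-term haematopoietic stem cells, which renew themselves in the marrow and give rise to every kind of blood cell. The 6 genes described are Crbn (cereblon), Ddb1, Cul4a, Cul4b, Rbx1 and Ikzf1 (Ikaros). Crbn was taken because it ranked 1 among 9796 genes by p-value in the authors' deposited table of the comparison between genotypes, so its difference is given here as a description and not tested. The other 5 were taken by their known roles beside it. All 6 had values in the 4 libraries, among 9244 genes with library values.

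The samples were polyA RNA libraries of C57BL/6 mice aged 8 to 12 weeks, 2 from Sin3B KO cells and 2 from wild-type (WT) cells. Sin3B is a corepressor that holds histone deacetylases together and brings them to genes. Cells of both genotypes were sorted by the same gate, LSK (without lineage markers, with Sca-1 and Kit) and without CD34 and Flk2. The labels do not say how the knockout was made, which part of the gene was removed, or whether the 2 libraries of a genotype came from separate animals, so the spread between libraries may be technical.

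Cereblon is a substrate receptor: it sits on the adaptor Ddb1, which hangs from the amino-terminal end of a Cul4 scaffold, while the RING protein Rbx1 at the other end brings in the enzyme that carries ubiquitin. Other receptors can take cereblon's place on Ddb1, so the same core serves many substrates. In human cells cereblon is the target of thalidomide and lenalidomide, which make it bind and destroy the lymphoid and stem cell transcription factor Ikaros. Mouse cereblon differs in the drug-binding region and does not destroy Ikaros with these drugs, and no drug is named in the labels. The data are RNA levels and hold no measure of protein or ubiquitin.

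Sin3b itself was at 755.4 and 646.5 normalised read counts in Sin3B KO 1 and 2, against 1522.1 and 1824.8 in WT 1 and 2. Both Sin3B KO libraries were lower, and reads of the gene remained in them. Taking the step between values of a library as 1 read, the listed genes had 9950979 to 13700630 reads per library, a number rebuilt from the normalised values. All 10 stem cell markers looked for were measured, with summed counts of 52542 and 65398 in Sin3B KO and 58052 and 58965 in WT. The gate genes Cd34 and Flt3 were also read, Cd34 at 5622.5 and 5133.1 in Sin3B KO and 6508.0 and 4945.4 in WT, and Flt3 at 830.4 and 354.0 in Sin3B KO and 1169.8 and 371.9 in WT. The gate was set on surface protein, not RNA. The sums of myeloid, erythroid and B lineage markers were higher in library 1 than in library 2 of both genotypes. The 12 myeloid markers, all measured, summed to 54157 and 24588 in Sin3B KO and 78687 and 14765 in WT. The 7 measured of 10 erythroid markers summed to 8373 and 3602 in Sin3B KO and 5915 and 2224 in WT. Among them Slc4a1 was at 0 in WT 2 but highest in WT 1 (1193.7), with 748.7 and 50.8 in Sin3B KO. The 7 measured of 10 B lineage markers summed to 5253 and 2806 in Sin3B KO and 4304 and 2324 in WT. The 4 measured of 10 T and NK markers summed to 4442 and 3726 in Sin3B KO and 3613 and 3509 in WT. These sums were higher in both Sin3B KO libraries, and higher in library 1 within each genotype. Among these markers Il7r was at 0 in WT 2 but highest in WT 1 (312.4), with 141.3 and 30.3 in Sin3B KO. The part of these cells in the values below was not tested. In such sorted bulk samples, fewer cells of a type and less RNA per cell cannot be told apart.

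Crbn (ENSMUSG00000005362), on the minus strand of chromosome 6, was the member that differed most between genotypes. It had 3276.5 and 2734.2 normalised read counts in Sin3B KO 1 and 2, against 1284.9 and 835.8 in WT 1 and 2. Both Sin3B KO values were more than the sum of the WT values, and the groups were far from overlapping. The means were 3005 ± 383 in Sin3B KO and 1060 ± 318 in WT cells (SD, n = 2 each), a 2.83-fold higher level in Sin3B KO. On the scale of log2(value + 1), where all fold changes of the limma fit below stand, the difference was 1.53 with a standard error (SE) of 0.25, which ranked 16 from the top among the 9244 genes. Leaving out any 1 library gave 1.22 to 1.84. The authors' deposited table gives 1.21, and its log2 fold changes were lower than those of this fit for each of the 6 members. How the authors' value was estimated is not stated, so it may not be a like measure. The median gene had a log2 fold change of 0.03, with quartiles of -0.26 and 0.27.

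**Figure D1:**
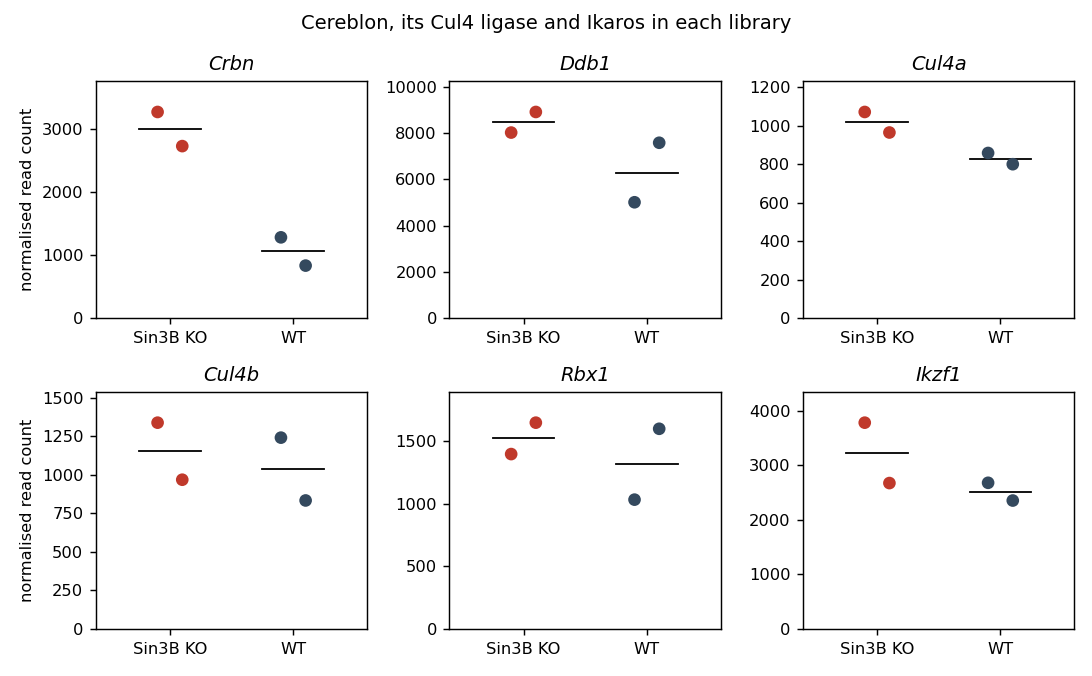
Normalised read counts (vertical axes, from 0) of the 6 genes in each library, with Sin3B KO libraries left of WT libraries and library 1 left of library 2 in each group; bars are means of 2 libraries. The groups are far apart for Crbn, at 3276.5 and 2734.2 in Sin3B KO and 1284.9 and 835.8 in WT, while those of Cul4b, Rbx1 and Ikzf1 overlap.

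The gene that runs toward Crbn from the opposite strand, Trnt1, encodes the enzyme that adds the CCA end to transfer RNAs. In the GENCODE M21 annotation the 3′ ends of both genes overlap, and 144 exonic bases, 2.06% of those of Crbn, also belong to Trnt1. Trnt1 had 1270.6 and 1294.0 normalised read counts in Sin3B KO and 907.6 and 689.4 in WT. Its groups did not overlap either, and its log2 fold change was 0.70 (SE 0.23), smaller than that of Crbn. It was not called (limma, Benjamini-Hochberg adjusted p = 0.548). The labels do not say whether reads were counted by strand, so reads from the shared bases cannot be assigned to 1 of the genes. On the other side of Crbn the nearest protein-coding gene with values, past 3 without, was Itpr1, a calcium channel of the endoplasmic reticulum. It was at 968.8 and 1049.6 in Sin3B KO and 1308.9 and 904.0 in WT, with overlapping groups and a log2 fold change of -0.11 (SE 0.24).

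The DNA just upstream of Crbn is shown because corepressors such as Sin3B act at promoters and Crbn is the member whose level stood apart. No measure of binding is part of these data. The 238 bases before the outermost RefSeq start, GRCm38.p6 chr6:106800100-106800337 on the minus strand, read 5′ to 3′ with capitals at the matches described next.
Crbn promoter: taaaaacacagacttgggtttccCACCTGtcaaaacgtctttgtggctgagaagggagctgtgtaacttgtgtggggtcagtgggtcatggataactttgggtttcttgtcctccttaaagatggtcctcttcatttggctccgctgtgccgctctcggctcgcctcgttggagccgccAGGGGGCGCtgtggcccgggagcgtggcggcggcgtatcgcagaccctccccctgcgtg
The motifs were picked after this sequence had been seen, and both strands were searched over the 250 bases before each of 32851 RefSeq starts. AGNNGGCGC, letters found in the core motif of the insulator protein CTCF, is in the windows of Crbn, Cul4a and Rbx1 and in 5.84% of all windows. CACCTG, an E-box variant, is in the windows of Crbn, Cul4a and Ddb1 and in 17.2% of all windows. CACGTG, the E-box that Myc and Mxd proteins bind, is in 6.02% of all windows and in none of the members. Of the E2F-like letters, TTTCCCGC is in the Rbx1 window and in 0.895% of all windows, and TTTGGCGC is in no member and in 0.417%. A match is a description of the letters and does not show a site.

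Ddb1 (ENSMUSG00000024740), the adaptor on which cereblon and all other receptors sit, is on chromosome 19. It had 8017.7 and 8907.0 normalised read counts in Sin3B KO, against 5007.5 and 7577.3 in WT. Both Sin3B KO values lay above both WT values, but WT 1 was well below WT 2. The means were 8462 ± 629 in Sin3B KO and 6292 ± 1817 in WT (SD, n = 2 each). The log2 fold change of 0.46 (SE 0.23, 95% interval -0.07 to 0.98) was not called (limma, Benjamini-Hochberg adjusted p = 0.550). It was 0.16 without WT replicate 1 and 0.75 without WT replicate 2. The 5′ end of Ddb1 overlaps Tkfc on the opposite strand over 328 exonic bases, 5.12% of those of Ddb1, and Tkfc was not among the genes with values.

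The scaffolds Cul4a and Cul4b are close paralogs that can each carry Ddb1. Cul4a (ENSMUSG00000031446, chromosome 8) had 1071.6 and 964.9 normalised read counts in Sin3B KO, against 858.5 and 800.2 in WT. Both Sin3B KO values were above both WT values, by a margin of about the spread within a group. Its log2 fold change was 0.29 (SE 0.21, 95% interval -0.19 to 0.78; limma, Benjamini-Hochberg adjusted p = 0.636). Cul4b (ENSMUSG00000031095, chromosome X) had 1338.8 and 968.5 in Sin3B KO, against 1241.6 and 833.8 in WT. Here the library number set the order: library 1 was high and library 2 low in both genotypes, and the groups overlapped. Its log2 fold change was 0.16 (SE 0.27, 95% interval -0.45 to 0.78; limma, Benjamini-Hochberg adjusted p = 0.836), and it turned to -0.12 when WT replicate 2 was left out and to -0.07 when Sin3B KO replicate 1 was. Per kilobase of exon, Cul4b was 2.07 and 1.66 times the level of Cul4a in Sin3B KO and 2.39 and 1.72 times in WT. Divided by the longest transcript instead, it was 1.39 and 1.12 times the level in Sin3B KO and 1.61 and 1.16 times in WT.

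Rbx1 (ENSMUSG00000022400, chromosome 15), the RING subunit that recruits the ubiquitin-carrying enzyme, had 1395.5 and 1646.2 normalised read counts in Sin3B KO, against 1031.8 and 1597.4 in WT. WT 1 stood below the other 3 libraries, and the groups overlapped. The log2 fold change was 0.24 (SE 0.25, 95% interval -0.34 to 0.82; limma, Benjamini-Hochberg adjusted p = 0.735), and it was -0.08 without WT replicate 1. Rbx1 is shared with other cullin ligases, so its level does not belong to Cul4 alone.

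Ikzf1 (ENSMUSG00000018654, chromosome 11), which encodes Ikaros, had 3782.0 and 2674.4 normalised read counts in Sin3B KO, against 2679.4 and 2354.0 in WT. Sin3B KO 1 was high, while Sin3B KO 2 and WT 1 were nearly equal. The means were 3228 ± 783 in Sin3B KO and 2517 ± 230.1 in WT (SD, n = 2 each), with a log2 fold change of 0.34 (SE 0.22, 95% interval -0.17 to 0.85; limma, Benjamini-Hochberg adjusted p = 0.608). It was 0.09 without Sin3B KO replicate 1. Of its 4 relatives, Ikzf2 (Helios) had 1311.0 and 1401.9 in Sin3B KO and 2081.9 and 1441.1 in WT, a log2 fold change of -0.35 (SE 0.23; limma, Benjamini-Hochberg adjusted p = 0.608). Ikzf4 and Ikzf5 had log2 fold changes of -0.06 and -0.07, and Ikzf3 was not among the genes with values.

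With a call set at a limma adjusted p (Benjamini-Hochberg) under 0.05, 0 of the 6 members and 0 of 9244 genes (0.0%) were called. Unadjusted, 459 genes (4.97%) were under 0.05 and higher in Sin3B KO cells and 365 (3.95%) were lower. The balance of these depended on scaling, with 380 higher and 441 lower under trimmed mean scaling, 209 and 672 under upper quartile scaling, and 257 and 608 under scaling to the total. It also depended on level. Among the 5807 genes with a mean of at least 500, 442 were higher and 180 lower, and the median log2 fold change was 0.11. The 2 groups did not overlap, with Sin3B KO above WT, for 3 of 6 members (Crbn, Ddb1 and Cul4a) and for 24.7% of all genes. All 6 members had a log2 fold change above 0, against 53.4% of all genes, and their median was 0.32. As Crbn was chosen from this same contrast, nothing is read from these shares. Upper quartile scaling moved the median of all genes by -0.11, and under each of the 3 other scalings the 6 members stayed above 0. A scaling moves all genes by nearly the same amount, so the place of the members against that median could hardly change. Nothing is read from it.

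**Figure D2:**
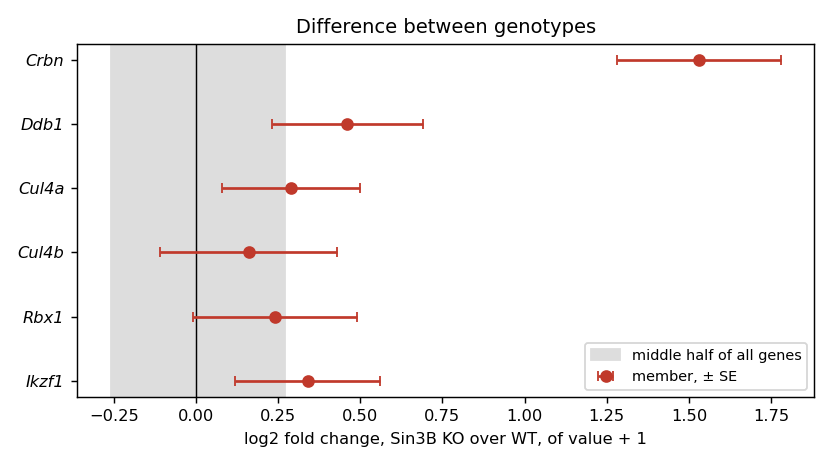
Log2 fold change of each member, Sin3B KO over WT on the log2(value + 1) scale, with bars of ± 1 SE from limma (n = 2 libraries each); the grey band spans the quartiles of all genes, -0.26 to 0.27. Crbn is at 1.53, and the other 5 members lie between 0.16 and 0.46.

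The members also differed between the numbered libraries of a genotype. Crbn was higher in library 1 by 0.26 in Sin3B KO and 0.62 in WT on the log2 scale, and Cul4b by 0.47 in Sin3B KO and 0.57 in WT. Ikzf1 was higher in library 1 by 0.50 in Sin3B KO and 0.19 in WT, and Cul4a by 0.15 in Sin3B KO and 0.10 in WT. Ddb1 and Rbx1 went the other way, Ddb1 at -0.15 in Sin3B KO and -0.60 in WT and Rbx1 at -0.24 in Sin3B KO and -0.63 in WT. Within each genotype, receptor and scaffolds were higher in library 1, by little for Cul4a, and adaptor and RING subunit were lower there. Between genotypes they were not opposed in this way. Crbn, Cul4a and Ddb1 were each higher in both Sin3B KO libraries than in either WT library. The genotype difference of Crbn was larger than its differences between numbered libraries. Crbn was chosen from this contrast, so nothing is read from that. For Cul4a the genotype difference (0.29) was also larger than those between numbered libraries. For Ddb1, Cul4b and Rbx1 it was smaller than theirs in WT, and for Ikzf1 (0.34) smaller than its 0.50 in Sin3B KO.

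Levels of different genes were compared per kilobase of exon. In Sin3B KO cells the order was Ddb1 (1320 ± 98.1 normalised read counts per kilobase), Ikzf1 (559 ± 136), Crbn (430.0 ± 54.9), Rbx1 (334 ± 38.9), Cul4b (298 ± 67.6) and Cul4a (159 ± 11.8). In WT cells it was Ddb1 (982 ± 284), Ikzf1 (436 ± 39.8), Rbx1 (289 ± 87.9), Cul4b (268 ± 74.5), Crbn (152 ± 45.5) and Cul4a (129 ± 6.44; SD, n = 2 each throughout). Ddb1 stood apart at the top in both genotypes, while the neighbours Rbx1 and Cul4b did not differ beyond their spread in either, nor did Ikzf1 and Crbn in Sin3B KO or Crbn and Cul4a in WT. In Sin3B KO cells 79.2% of genes with a length were below Crbn, and in WT cells 49.7% were. For Ddb1 these shares were 95.3% in Sin3B KO and 94.1% in WT. The annotated exons of Crbn span 6.98 kb and its longest transcript 2.90 kb. By the longest transcript Crbn was at 1040.0 ± 132 in Sin3B KO, next after Ddb1 (1900.0 ± 141), and at 366 ± 110 in WT, the fourth after Ddb1 (1410.0 ± 408), Rbx1 (493 ± 150.0) and Ikzf1 (487 ± 44.6).

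Against its adaptor, Crbn per kilobase was 0.375 and 0.282 times Ddb1 in Sin3B KO 1 and 2, and 0.236 and 0.101 times in WT 1 and 2. The ratio was higher in both Sin3B KO libraries, and WT 2 had the lowest. Crbn was chosen from this contrast, so this ratio and the ranks and shares that follow are descriptions and no separate result. Among 25 substrate receptors of Cul4 ligases including cereblon, Crbn ranked 2 and 3 by level per kilobase in Sin3B KO 1 and 2 and 7 and 14 in WT 1 and 2. It made up 10.2% and 8.70% of the summed receptor level in Sin3B KO, against 4.80% and 2.67% in WT. By the longest transcript the ranks were 3 and 3 in Sin3B KO and 3 and 10 in WT, and the shares 15.1% and 13.0% in Sin3B KO and 7.29% and 4.21% in WT. The other 24 receptors summed to 4132 and 4108 per kilobase of exon in Sin3B KO and 3654 and 4362 in WT, which overlap. The most abundant receptor per kilobase of exon was Fbxw5 in all 4 libraries. By the longest transcript this did not hold in WT, where Dcaf8 was at 1120 ± 37.0 and Fbxw5 at 934 ± 232. In Sin3B KO they were close by that length, Dcaf8 at 1190 ± 11.3 and Fbxw5 at 1220 ± 101.

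**Figure D3:**
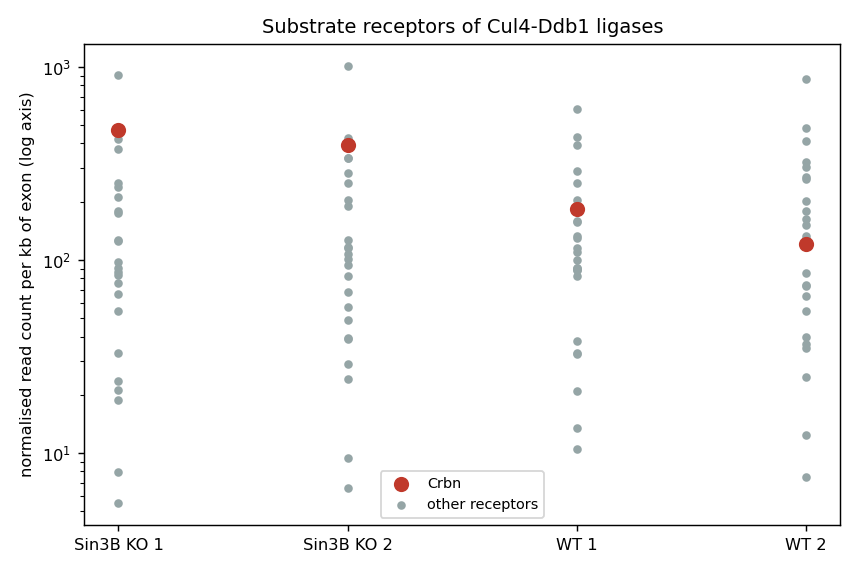
Level of 25 Cul4 substrate receptors in each library, as normalised read count per kilobase of exon on a log axis, with Crbn as large red points. Crbn, which was chosen from this contrast, ranks 2 and 3 in the Sin3B KO libraries and 7 and 14 in the WT libraries. The other 24 receptors sum to 3654 to 4362.

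The wider list of receptors and accessory proteins other than cereblon held 25 genes, all measured. Of these 0 were called, 1 was higher and 1 lower at an unadjusted p under 0.05 (4.97% and 3.95% of all genes), 11 were above 0 (53.4% of all genes) and 14 below, and the median log2 fold change was -0.12, against 0.03 for all genes. In 5 of them both Sin3B KO values were above both WT values, and in 6 both were below, against 24.7% and 19.4% of all genes. Dcaf8 had 5498.6 and 5572.7 normalised read counts in Sin3B KO and 5080.5 and 5324.2 in WT. Fbxw5, which also serves in Cul1 ligases, had 2753.6 and 3096.2 in Sin3B KO and 1840.2 and 2622.0 in WT (log2 fold change 0.41, SE 0.22). The lowest log2 fold changes were those of Dcaf15, the receptor that sulfonamide drugs recruit in human cells, at -0.95 (SE 0.42), and of Rfwd2, the Cop1 ubiquitin ligase, at -0.91 (SE 0.46). Dcaf15 had 214.3 and 278.2 in Sin3B KO and 312.4 and 718.1 in WT, and Rfwd2 96.1 and 115.0 in Sin3B KO and 183.6 and 215.6 in WT. Neither was called (limma, Benjamini-Hochberg adjusted p = 0.548 and 0.550). The median was 0.03 without Sin3B KO replicate 2 and 0.07 among the 17 genes with a mean of at least 500, so its sign was not fixed. The median of all genes was 0.04 and 0.11 in these fits, so that of the list stayed below it.

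Cullins work only when the small protein NEDD8 is attached to them, and the COP9 signalosome takes it off again. All 15 genes of the NEDD8 pathway were measured, 0 were called, 1 was higher at an unadjusted p under 0.05 (4.97% of all genes), and 11 were above 0 (53.4% of all genes), with a median log2 fold change of 0.26. In 6 of them both Sin3B KO values were above both WT values, and in 1 both were below, against 24.7% and 19.4% of all genes. Ube2f, an enzyme that carries NEDD8, had 720.8 and 830.2 normalised read counts in Sin3B KO and 425.3 and 521.2 in WT (log2 fold change 0.72, SE 0.25; limma, Benjamini-Hochberg adjusted p = 0.548). Uba3, the catalytic subunit of the NEDD8-activating enzyme, had 643.9 and 643.9 in Sin3B KO and 521.0 and 410.5 in WT (0.48, SE 0.25), with groups that did not overlap. Nedd8 itself had 2280.7 and 1979.7 in Sin3B KO and 1533.5 and 2054.3 in WT, with overlapping groups, and Nub1, which sends NEDD8 to the proteasome, 2121.2 and 2425.6 in Sin3B KO and 1468.5 and 1998.9 in WT. The median of the list was 0.06 without WT replicate 1.

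All 10 subunits of the COP9 signalosome were measured and all had a log2 fold change above 0, although 0 were called. At an unadjusted p under 0.05, 4 were higher, where 4.97% of all genes were. Their median was 0.43, against 0.03 for all genes, and the values ran from 0.01 to 0.62. For the 9 whose mean reached 500 the median was 0.39, against 0.11 for all genes of that level. The groups did not overlap in 7 subunits, with Sin3B KO above WT in 7 and below in 0, against 24.7% and 19.4% of all genes. Cops3 had 2180.8 and 1887.9 normalised read counts in Sin3B KO and 1522.1 and 1142.4 in WT (log2 fold change 0.62, SE 0.22), and Cops4 3610.0 and 2940.2 in Sin3B KO and 2256.4 and 2300.6 in WT (0.52, SE 0.20). Gps1, the first subunit, had 417.1 and 379.0 in Sin3B KO and 260.0 and 274.0 in WT (0.57, SE 0.29). Cops5, the subunit that cuts NEDD8 from cullins, had 1205.2 and 1436.6 in Sin3B KO and 1007.9 and 1005.9 in WT (0.39, SE 0.21; limma, Benjamini-Hochberg adjusted p = 0.562) and is named for that role after its values were seen. Cops7a, the most abundant, had 3430.2 and 4267.1 in Sin3B KO and 2792.2 and 3722.9 in WT, with overlapping groups. The subunit at 0.01 was Cops7b, which fell below 0 under each of the 3 other scalings, leaving 9 of 10 above 0 there with medians of 0.31 to 0.40. When 1 library was left out, the median was 0.36 to 0.43.

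**Figure D4:**
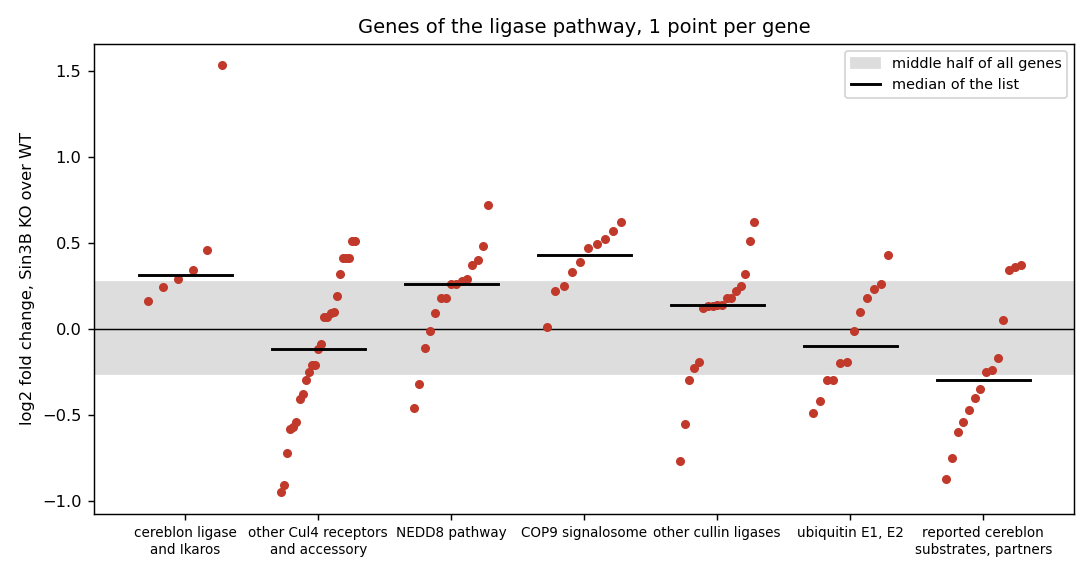
Log2 fold change, Sin3B KO over WT, of the measured genes of each list (1 point per gene, bar at the list's median), with the grey band at the quartiles of all genes, -0.26 to 0.27. The 10 COP9 subunits lie at or above 0.01 with a median of 0.43, and the other receptors spread on both sides of 0 from -0.95 to 0.51.

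Of 19 proteins reported as substrates or partners of cereblon, mostly in human cells, 14 had values, Ikzf1 among them. Of these 0 were called, 1 was lower at an unadjusted p under 0.05 (3.95% of all genes), 4 were above 0 (53.4% of all genes) and 10 below, with a median log2 fold change of -0.30. In 1 both Sin3B KO values were above both WT values, and in 6 both were below, against 24.7% and 19.4% of all genes. Bsg, a surface chaperone of lactate transporters, was the most abundant at 4732.5 and 3676.8 normalised read counts in Sin3B KO and 3877.6 and 4210.5 in WT, with overlapping groups. App, the amyloid precursor protein, had 184.5 and 235.4 in Sin3B KO and 444.7 and 329.4 in WT (log2 fold change -0.87, SE 0.34; limma, Benjamini-Hochberg adjusted p = 0.548). Zbtb16, a zinc finger factor of stem and innate lymphoid cells, had 205.7 and 66.9 in Sin3B KO and 378.5 and 103.9 in WT (-0.75, SE 0.73), so that the spread between numbered libraries was larger than the genotype difference. When 1 library was left out, the median ran from -0.39 without Sin3B KO replicate 2 to -0.14 without WT replicate 1. Under upper quartile scaling it was -0.42, against -0.08 for all genes.

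The 5 genes nearest to Crbn in pattern over the 4 libraries, by Euclidean distance of log2 values centred per gene, were Commd10 (0.25), Recql (0.29), Wdr35 (0.31), BC055324 (0.34) and Shcbp1 (0.36). Each was lowest in WT 2, next in WT 1, and higher in both Sin3B KO libraries. Commd10, a member of a family tied to endosomal sorting, had 1391.7 and 1057.6 normalised read counts in Sin3B KO and 502.8 and 278.9 in WT. Recql, a DNA helicase, had 855.4 and 589.5 in Sin3B KO and 347.7 and 231.4 in WT. Wdr35, a protein of transport in cilia, had 186.5 and 173.0 in Sin3B KO and 79.8 and 63.3 in WT. They were chosen for a likeness that includes the genotype difference, over 4 libraries only, so they are a description and carry no test.

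**Figure D5:**
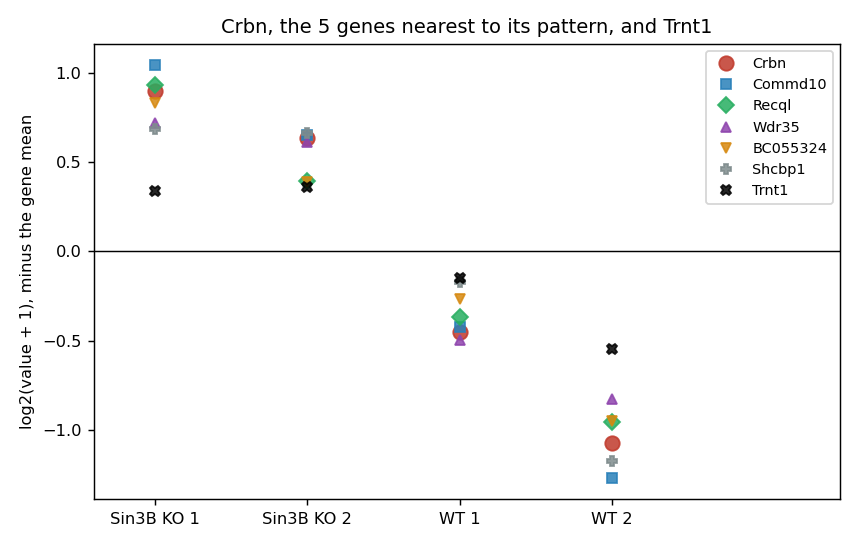
Log2(value + 1) minus the gene's mean over the 4 libraries, for Crbn, the 5 genes nearest to its pattern and its neighbour Trnt1. The 6 genes lie above 0 in both Sin3B KO libraries and below 0 in both WT libraries, and Trnt1 follows with a smaller spread.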

How the data were processed

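Per the submitters' processing notes, Bowtie, DESeq and the mouse build mm9 were used. The sources used here give no versions, counting tool or annotation. The authors deposited a table of 9796 genes, of which 552 had no library values and were left out. Its library values are a signal, read counts that the authors had divided by a size factor: all 9244 values of each library were whole multiples of a step of 0.9611 (Sin3B KO 1), 0.8918 (Sin3B KO 2), 1.1401 (WT 1) or 0.9891 (WT 2), within 0.01 of a step. The smallest mean listed is 120.2, so genes of lower expression are not analysed here. Per the file headers, the authors also deposited their own log2 fold change, its error, a score from dividing these, and p-values before and after adjustment.

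The main test was limma 3.58.1 in R 4.3.3 on log2(value + 1) with a trended prior, over genes that reached a value of 1 in 2 or more libraries, which all 9244 did. Adjusted p-values are Benjamini-Hochberg over these genes. The fit was tested on simulated data. The members, lists and tests were chosen with earlier results of these data known. From each list, the rule named the called genes or else the 2 most abundant and the 2 with the largest absolute log2 fold change. Exon lengths come from GENCODE M21 (GRCm38), matched by Ensembl identifier for 9000 genes. Promoter sequence and neighbours come from RefSeq and GENCODE tables of GRCm38, not the authors' build. Alternatives were 3 scalings, other pseudocounts (0.1 and 5) and filters, an untrended prior, a threshold of 0.1, the replicate number as a term, each library left out, and transcript length.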

Additional observations from a re-analysis of the deposited data

How the results depend on the processing

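The count of called genes was 0 under the 3 other scalings, both other pseudocounts, both other filters, the untrended prior and a threshold of 0.1. Leaving out 1 library gave 0 to 1 called genes, and in these fits the genotype left with 1 library is assumed to vary like the other. Fitted with a replicate block (the number in the titles), 27 genes (0.292%) were called. Of the 6 members 1 was among them, Crbn, which was chosen from this same contrast, so its call is no independent test. Deviations of same-numbered libraries correlated across genes (r = 0.46, 2 pairs), but what the number marks is not stated. Per the file headers, the library called 2 here carries the number 3 in both genotypes, and no library is numbered 2. Crbn's log2 fold change was 1.42 to 1.50 under the other scalings and 1.22 to 1.84 with 1 library left out. Those of Ddb1, Cul4a and Ikzf1 kept their sign (0.16 to 0.75, 0.22 to 0.37 and 0.09 to 0.59). Those of Cul4b (-0.12 to 0.45) and Rbx1 (-0.08 to 0.55) turned. Levels per kilobase were higher for all members by the length of the longest transcript, which is shorter than the summed exons. Planned count models were not run, because the reads were inferred from the steps between values and few low values were there to check them on. With 2 libraries a genotype, the median 95% interval of a gene spanned 0.60 on either side on the log2 scale.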

Other observations

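Ligases built on other cullins were read beside Cul4. Of 17 cullins, adaptors and receptors, all measured, 0 were called in limma, 1 was higher at an unadjusted p under 0.05 (4.97% of all genes), 12 were above 0 (53.4% of all genes) and 5 below, with a median log2 fold change of 0.14. For the 15 whose mean reached 500 it was also 0.14, against 0.11 for all genes of that level. It was 0.03 under upper quartile scaling and 0.06 without WT replicate 1, against -0.08 and 0.03 for all genes. In 5 of the list both Sin3B KO values were above both WT values, and in 3 both were below, against 24.7% and 19.4% of all genes. Cul3, the scaffold of ligases with BTB-domain receptors, had 286.4 and 634.9 normalised read counts in Sin3B KO and 661.3 and 798.2 in WT (log2 fold change -0.77, SE 0.37), with both Sin3B KO values below both WT values. For Cul3, Sin3B KO 1 minus Sin3B KO 2 was -1.15 on the log2 scale, a larger difference than that between genotypes. Skp2, a receptor of Cul1 ligases that removes the cell cycle inhibitor p27, had 990.9 and 902.5 in Sin3B KO and 583.8 and 651.8 in WT (0.62, SE 0.22; limma, Benjamini-Hochberg adjusted p = 0.548). The abundant Spop, a receptor of Cul3 ligases, had 5856.1 and 6176.4 in Sin3B KO and 5297.1 and 4389.5 in WT, and Skp1a, the adaptor of Cul1, 4358.7 and 4801.3 in Sin3B KO and 4427.2 and 3890.0 in WT.

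Of 12 ubiquitin-activating and ubiquitin-carrying enzymes, all measured, 0 were called and 0 were under 0.05 unadjusted. In this list 5 were above 0 (53.4% of all genes) and 7 below, with a median of -0.10. That median was 0.12 without WT replicate 1 and 0.05 for the 8 whose mean reached 500, against 0.03 and 0.11 for all genes. Uba1, the main activating enzyme, had 5239.1 and 5658.3 in Sin3B KO and 4342.8 and 5332.1 in WT, and Ube2l3 had 4409.6 and 4700.5 in Sin3B KO and 3665.6 and 3956.3 in WT. Ube2d1, which works with many RING ligases, had 204.7 and 133.8 in Sin3B KO and 352.3 and 154.3 in WT, and Cdc34, a partner of cullin ligases, 219.1 and 162.3 in Sin3B KO and 119.7 and 162.2 in WT. The spread between numbered libraries was as large as the genotype difference for both Ube2d1 and Cdc34 in at least 1 genotype.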
